A study of Sus scrofa with 16 samples.

Results

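PRM1, PRM2, ODF1, DMRT1 and PGK2, which are genes of the testis, and CSN1S1 and LALBA, which are genes of milk, were described in pig tissues that neither make sperm nor secrete milk. They are 7 of the 175 genes that carry a symbol on a pig array of 70-base oligonucleotides, and 7 of its 20736 rows, since each had 1 probe. All rows with one of these symbols were taken, whatever their values. The samples were liver, longissimus skeletal muscle, uterine endothelium and brain stem of 4 gilts, young female pigs of about 165 days, with no treatment named in the labels and no testis or mammary gland sampled. Each gilt formed a loop of 4 arrays, in which each tissue appeared in both dyes, and 16 arrays were made in all. The gilt was the replicate. Gilt and loop cannot be told apart.

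Male germ cells express a set of genes found in few other cells. Protamines replace histones on the condensing sperm DNA, outer dense fibre proteins stiffen the sperm tail, and PGK2 takes over a glycolytic step from the X-linked PGK1 once the X chromosome is silenced during meiosis. DMRT1, a DM-domain transcription factor, acts earlier, in Sertoli and germ cells. Caseins and alpha-lactalbumin are made by the secretory epithelium of the lactating mammary gland, where alpha-lactalbumin is a subunit of lactose synthase.

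The authors' deposited values, 1 ratio per row and array, were read as log2 of Cy5 over Cy3. Neither the base nor the sign is stated in the sources used here. The sign is likely rather than settled, and turning it would exchange higher and lower in all that follows. The 4 ratios of each loop were solved into 4 tissue values per gilt, with the average of that gilt's 4 tissues set to 0. A value below 0 therefore means below that mean and not absence, and the scale of a probe says nothing about how much RNA there was compared with another probe. No intensities were used, so the depth is unknown and a probe at background could not be told from a bright one. In whole tissue, fewer cells of a type and less RNA per cell cannot be told apart. Differences were tested with limma with the gilt as a block, and adjusted p-values are Benjamini-Hochberg values over all 20736 rows, with a threshold of 0.05. Highest in a tissue means here that the tissue exceeded the other 3 in separate comparisons, all past that threshold, and lowest is the mirror of this.

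Among the 7 genes, 5 differed across the 4 tissues by limma's F test, while 12699 of all rows did so (61.2%). That share of the genes is near the background. The median range from the lowest to the highest tissue mean was 0.83 for the 7 genes and 0.37 for all rows, and the median SD between gilts was 0.18 and 0.11. PGK2 and PRM2 were highest in muscle, a call made for 7.11% of all rows. ODF1 and LALBA were highest in brain stem, a call made for 9.7% of all rows. PGK2 was also lowest in brain stem, which held for 8.14% of all rows. Taking the tissues together, 4 of the 7 genes were highest in 1 tissue, beside 29.6% of all rows. Only 1 gene was lowest in 1 tissue, beside 9.88% of all rows. None of the 7 was called highest in liver (7.1% of all rows) or in uterine endothelium (5.72% of all rows), shares at which 0 of 7 is near the background. Of the 42 pairwise comparisons of a gene between 2 tissues, 18 passed the threshold, beside 32.5% of all such comparisons over all rows.

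**Figure D1:**
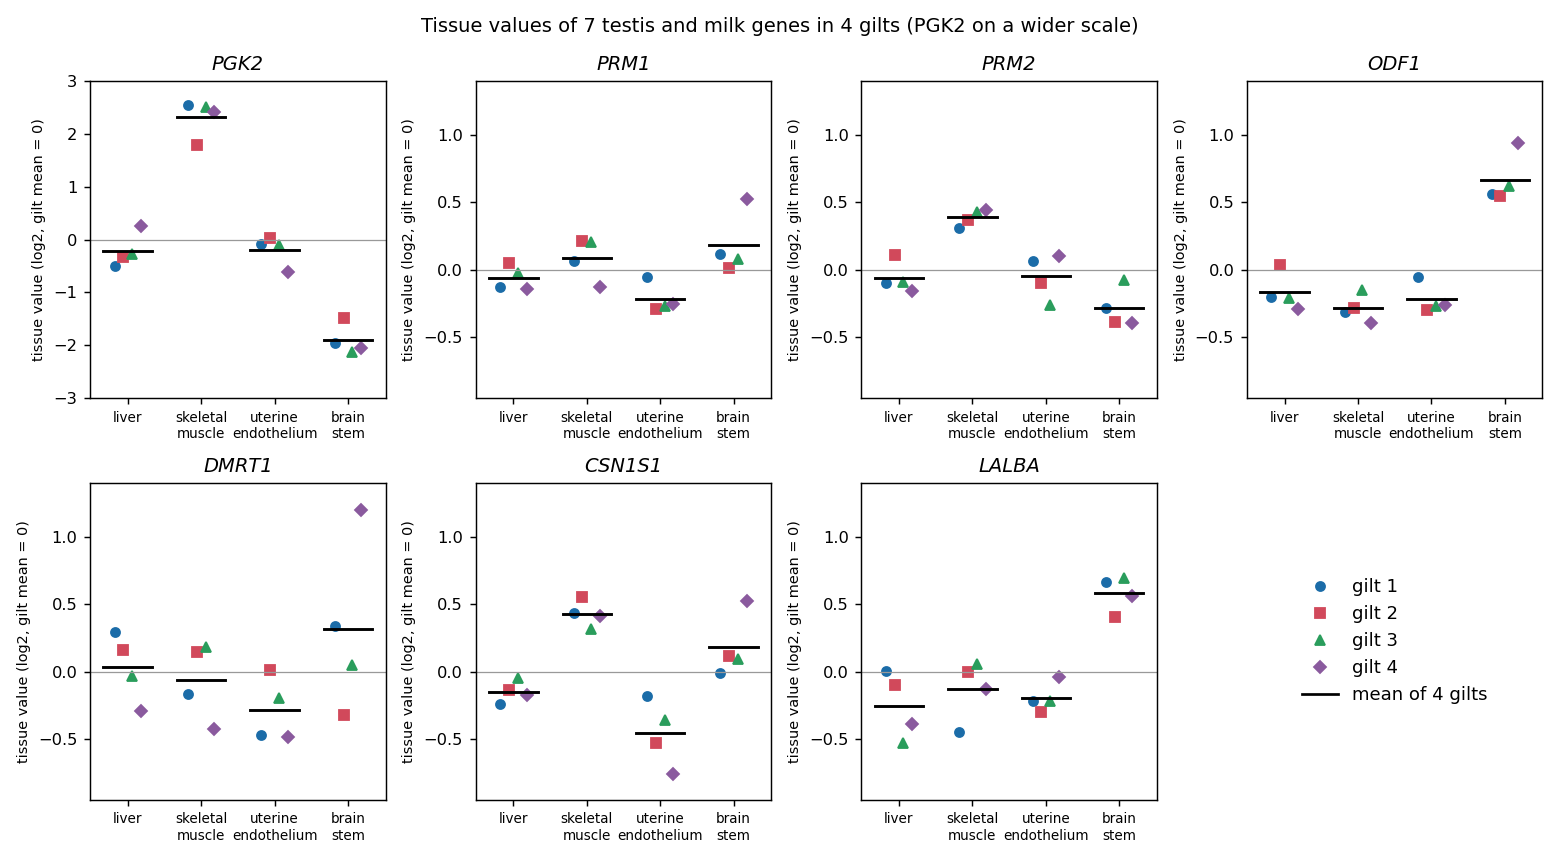
Tissue values (log2, relative to the mean of each gilt's 4 tissues, y axis) of the 7 genes in liver, skeletal muscle, uterine endothelium and brain stem (x axis). Each symbol is 1 of 4 gilts and each black line is the mean. PGK2 in muscle stands between 1.78 and 2.55, and the other 6 genes stay between -0.76 and 1.20.

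The plot of tissue values by gilt shows PGK2 on a scale of its own and the other 6 genes on a common, narrower one. In that plot the 4 gilts lie close together for PRM2 in muscle (SD 0.06) and far apart for DMRT1 in brain stem (SD 0.65). For ODF1 in brain stem gilt 4 lies above the other gilts.

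**Figure D2:**
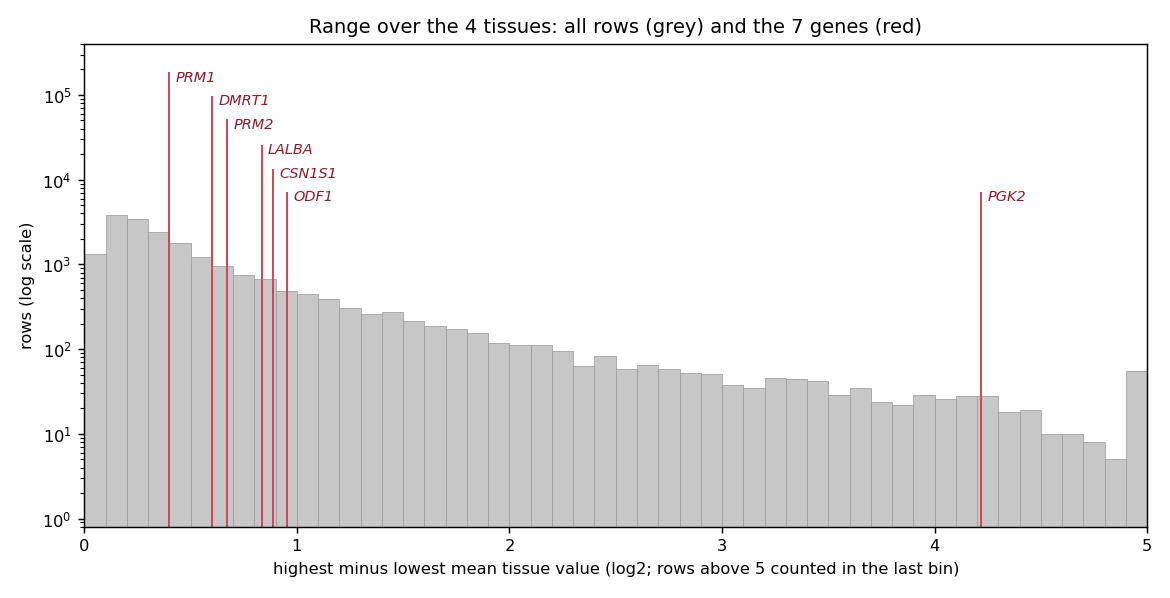
Number of rows (y axis, log scale) by the range from the lowest to the highest tissue mean (log2, x axis), with rows above 5 counted in the last bin. Red lines mark the 7 genes, of which PGK2 stands at 4.22 and the others lie from 0.40 to 0.95.

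The histogram of ranges places the 7 genes among all rows of the array. PGK2, with a range of 4.22, exceeded 99.3% of the rows. ODF1 (0.95) exceeded 80.5%, CSN1S1 (0.89) 78.9%, LALBA (0.83) 77.2%, PRM2 (0.67) 71.3%, DMRT1 (0.60) 67.8% and PRM1 (0.40) 53.3%.

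PGK2, the testis form of phosphoglycerate kinase, was far above the other tissues in muscle and far below them in brain stem. In muscle it stood at 2.55, 1.78, 2.50 and 2.41 in gilts 1 to 4, a mean of 2.31 ± 0.36 (SD, n = 4). The liver values were -0.50, -0.33, -0.27 and 0.26 (mean -0.21 ± 0.33), and the uterine values were -0.08, 0.03, -0.09 and -0.62 (mean -0.19 ± 0.29). In brain stem it stood at -1.96, -1.48, -2.13 and -2.05 (mean -1.91 ± 0.29). The muscle values lay above all others and the brain stem values below all others, while liver and uterine values overlapped.

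Muscle exceeded brain stem in PGK2 by 4.22 ± 0.23 (SE; limma adjusted p = 4.64e-07), or 18.6-fold on the log2 reading. It exceeded liver by 2.52 ± 0.23 and uterine endothelium by 2.50 ± 0.23, in 4 of 4 gilts each (limma adjusted p at most 2.58e-05). Brain stem in turn differed by -1.70 from liver and by -1.72 from uterine endothelium (limma adjusted p at most 0.000172). The order was thus muscle, then uterine endothelium and liver, then brain stem, and the middle pair differed by 0.02 (95% interval -0.49 to 0.53).

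The separate arrays show the same for PGK2 before any solving. On the arrays that carried muscle with brain stem, muscle was in Cy5 and the ratios were 3.23 in gilt 2 and 4.88 in gilt 3. Against liver, the ratio was 3.30 with muscle in Cy5 (gilt 1) and -2.15 and -1.98 with muscle in Cy3 (gilts 2 and 4). Against uterine endothelium, it was 3.20 with muscle in Cy5 (gilt 4) and -2.38 and -2.35 with muscle in Cy3 (gilts 1 and 3). Against liver and uterine endothelium the sign thus turned with the dye. The ratios were larger in size with muscle in Cy5 (3.20 and 3.30) than with muscle in Cy3 (-1.98 to -2.38). The dye value of PGK2 was at most 0.25 in a gilt. It is the mean of a loop's 4 ratios, so it also holds the noise in them.

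PGK2 is an intronless retrocopy of PGK1, the phosphoglycerate kinase of most body cells, and the 2 coding sequences are alike. No probe named PGK1 was among the rows with a symbol, and none of 20 listed genes of glycolysis and glucose use was either. How far the PGK2 probe also bound PGK1 RNA was not tested. In the pig reference annotation (Sscrofa11.1, used for names and neighbours only) PGK2 lies between CRISP3 and CRISP1, genes of cysteine-rich secretory proteins. Neither has a symbol among the rows.

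PRM1 and PRM2 are the genes of protamine 1 and protamine 2. Protamines are small arginine-rich proteins that pack sperm DNA, and whether pig sperm hold both was not examined. The genes are next to each other in the reference annotation, followed by PRM3 and TNP2. Their probes did not follow each other across the tissues: the 16 tissue values of PRM1 and PRM2 had a Pearson r of -0.01.

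PRM2 was highest in muscle in each of the 4 gilts. The muscle values were 0.31, 0.37, 0.43 and 0.45 in gilts 1 to 4 (mean 0.39 ± 0.06, SD, n = 4). Liver gave -0.09, 0.11, -0.09 and -0.16 (mean -0.06 ± 0.12), uterine endothelium 0.06, -0.10, -0.26 and 0.10 (mean -0.05 ± 0.17), and brain stem -0.28, -0.38, -0.08 and -0.39 (mean -0.28 ± 0.15). The muscle values overlapped with those of no other tissue, and those of liver overlapped with those of uterine endothelium and of brain stem.

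The excess of PRM2 in muscle was 0.67 ± 0.10 over brain stem (SE; limma adjusted p = 0.000313), 0.45 over liver and 0.44 over uterine endothelium (limma adjusted p at most 0.00832). These differences are 1.59-fold, 1.36-fold and 1.35-fold. Among the other tissues no pair passed the threshold: uterine endothelium exceeded brain stem by 0.24 (95% interval 0.01 to 0.46, limma adjusted p = 0.0813), and liver exceeded brain stem by 0.23 (limma adjusted p = 0.101). Without gilt 3, whose brain stem value of -0.08 was the highest of the 4, PRM2 was also called lowest in brain stem.

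PRM1 had the narrowest range of tissue means of the 7 genes with all 4 gilts, although DMRT1 had the higher F test p and fewer called pairs. The brain stem values were 0.11, 0.02, 0.08 and 0.52 in gilts 1 to 4 (mean 0.18 ± 0.23, SD, n = 4), and the muscle values 0.07, 0.22, 0.20 and -0.13 (mean 0.09 ± 0.16). Liver gave -0.13, 0.05, -0.02 and -0.14 (mean -0.06 ± 0.09) and uterine endothelium -0.05, -0.29, -0.27 and -0.25 (mean -0.21 ± 0.11). Brain stem was above 0 in all 4 gilts and uterine endothelium below 0 in all 4, and these were the only 2 tissues without overlap.

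The F test did not pass for PRM1 (limma adjusted p = 0.0509), and of the 6 pairs only brain stem against uterine endothelium did. That difference was 0.40 ± 0.12 (SE; limma adjusted p = 0.0204), 1.32-fold. It did not pass without gilt 3 (0.42, limma adjusted p = 0.0787) and was 0.27 without gilt 4 (limma adjusted p = 0.0491), where the F test passed (limma adjusted p = 0.0356). The neighbours in the order were not told apart, with brain stem 0.09 above muscle (95% interval -0.17 to 0.36), muscle 0.15 above liver and liver 0.16 above uterine endothelium (95% interval -0.11 to 0.42).

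ODF1 encodes a protein of the outer dense fibres along the sperm tail, related in sequence to the small heat shock proteins. It was highest in brain stem, where the values were 0.56, 0.55, 0.62 and 0.94 in gilts 1 to 4 (mean 0.67 ± 0.19, SD, n = 4). Liver gave -0.20, 0.03, -0.21 and -0.29 (mean -0.17 ± 0.14), muscle -0.31, -0.28, -0.15 and -0.40 (mean -0.28 ± 0.10), and uterine endothelium -0.06, -0.30, -0.26 and -0.26 (mean -0.22 ± 0.11). All brain stem values stood above all others, and the values of liver, muscle and uterine endothelium overlapped with each other.

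Brain stem exceeded muscle in ODF1 by 0.95 ± 0.11 (SE; limma adjusted p = 4.03e-05), 1.94-fold, uterine endothelium by 0.89 and liver by 0.83 (limma adjusted p at most 9.22e-05). The direction was the same in 4 of 4 gilts. The other 3 tissues were not told apart, the widest of their differences being 0.12 between liver and muscle (95% interval -0.12 to 0.35).

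DMRT1 takes part in testis development and in holding the male fate of its cells, and it did not pass in any comparison. In brain stem it stood at 0.34, -0.32, 0.05 and 1.20 in gilts 1 to 4 (mean 0.32 ± 0.65, SD, n = 4). Liver gave 0.30, 0.16, -0.03 and -0.30 (mean 0.03 ± 0.26), muscle -0.17, 0.15, 0.18 and -0.42 (mean -0.07 ± 0.28), and uterine endothelium -0.47, 0.01, -0.20 and -0.48 (mean -0.28 ± 0.24). All tissues overlapped, and brain stem held both the highest value, in gilt 4, and a low value, in gilt 2.

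The SD of DMRT1 between gilts exceeded that of 95.3% of the rows. Its F test gave a limma adjusted p of 0.311, and the widest difference, brain stem over uterine endothelium, was 0.60 ± 0.29 (SE; 95% interval -0.03 to 1.23, limma adjusted p = 0.116). Without gilt 2 the same difference was 0.91 and passed (limma adjusted p = 0.0477), and without gilt 4 it was 0.24 (limma adjusted p = 0.394). Both arrays behind the high value of gilt 4 showed it: 1.59 with brain stem in Cy5 against liver and -1.59 with brain stem in Cy3 against uterine endothelium. Its paralogs DMRT2 and DMRT3, which share the DNA-binding domain, lie beside it in the reference annotation, and neither has a symbol among the rows.

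The brain stem value of gilt 4 was the highest of the 4 gilts for PRM1, ODF1, DMRT1 and CSN1S1, but not for PGK2, PRM2 or LALBA. The 2 arrays with brain stem of gilt 4 had ratio SDs of 0.89 and 1.00 over all rows, against 0.52 to 0.82 on the other 14 arrays. With all arrays scaled to 1 spread, the widest difference was 0.35 for PRM1, 0.87 for ODF1 and 0.51 for DMRT1, in the same direction, and the calls of those 3 pairs were the same.

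CSN1S1 encodes alpha-S1-casein, a main protein of the milk micelle. It was high in muscle, low in uterine endothelium and between them in brain stem and liver. The muscle values were 0.43, 0.55, 0.31 and 0.41 in gilts 1 to 4 (mean 0.43 ± 0.10, SD, n = 4), and the brain stem values -0.01, 0.11, 0.09 and 0.52 (mean 0.18 ± 0.24). Liver gave -0.24, -0.14, -0.04 and -0.17 (mean -0.15 ± 0.08), and uterine endothelium -0.18, -0.53, -0.36 and -0.76 (mean -0.46 ± 0.25). Muscle and brain stem overlapped through gilt 4, and liver and uterine endothelium overlapped through gilt 1, but neither of the upper 2 tissues overlapped with the lower 2.

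Muscle exceeded uterine endothelium in CSN1S1 by 0.89 ± 0.14 (SE; limma adjusted p = 0.000751), 1.85-fold, and liver by 0.58 (limma adjusted p = 0.00854). Brain stem exceeded uterine endothelium by 0.64 (limma adjusted p = 0.00337). Muscle over brain stem, 0.25 (95% interval -0.05 to 0.55, limma adjusted p = 0.175), brain stem over liver, 0.33 (limma adjusted p = 0.0815), and liver over uterine endothelium, 0.31 (limma adjusted p = 0.133), did not pass. CSN1S1 was therefore called highest in no tissue, but without gilt 4, or with arrays scaled, it was called highest in muscle. The beta-casein gene CSN2 lies beside it in the reference annotation and has no symbol among the rows.

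LALBA encodes alpha-lactalbumin, which is related in sequence to the lysozymes. It was highest in brain stem, with 0.67, 0.40, 0.69 and 0.56 in gilts 1 to 4 (mean 0.58 ± 0.13, SD, n = 4). Liver gave 0.0012, -0.10, -0.53 and -0.39 (mean -0.25 ± 0.25), muscle -0.45, -0.00073, 0.06 and -0.13 (mean -0.13 ± 0.22), and uterine endothelium -0.22, -0.30, -0.22 and -0.04 (mean -0.19 ± 0.11). No brain stem value overlapped with another tissue, and the other 3 tissues overlapped with each other.

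Brain stem exceeded liver in LALBA by 0.83 ± 0.14 (SE; limma adjusted p = 0.000694), 1.78-fold, uterine endothelium by 0.77 (limma adjusted p = 0.00122) and muscle by 0.71 (limma adjusted p = 0.00212), in 4 of 4 gilts. The widest difference among the other 3 tissues was 0.12, muscle over liver (95% interval -0.19 to 0.43).

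**Figure D3:**
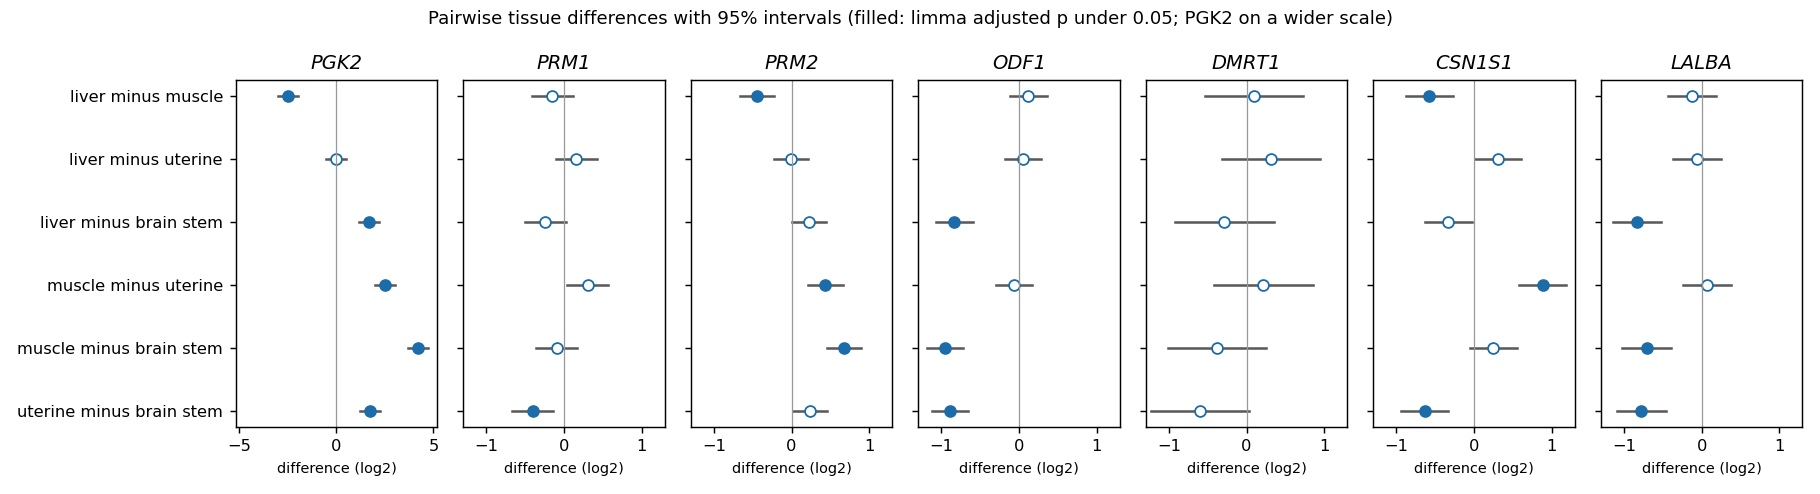
Differences between 2 tissues (log2, x axis) of the 7 genes for the 6 pairs of tissues (y axis), with 95% intervals over 4 gilts; filled points passed a limma adjusted p of 0.05. Points right of 0 mean higher in the tissue named first, as for muscle minus brain stem in PGK2 (4.22), and points left of 0 lower, as for muscle minus brain stem in ODF1.

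The plot of pairwise differences sets the called pairs of all 7 genes beside those not called. PGK2 had 5 called pairs, PRM2, ODF1, CSN1S1 and LALBA had 3 each, PRM1 had 1 and DMRT1 had 0, out of 6 each, where 32.5% of the pairs passed over all rows. The mean in uterine endothelium was below 0 for all 7 genes, but also for 73.6% of the rows with a symbol and 55.9% of all rows. Brain stem had the highest mean for 4 genes, as for 36.5% of the rows with a symbol and 33.3% of all rows, and muscle for 3, as for 23.6% and 22.0%.

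Across the 16 tissue values, ODF1 and LALBA had a Pearson r of 0.87 with each other, PGK2 and PRM2 of 0.86, and PRM1 and CSN1S1 of 0.78. These values share their gilts, arrays and loops, and the correlations are descriptions. The testis genes thus did not form 1 group by tissue, nor did the milk genes: ODF1 and PGK2 had an r of -0.76, and CSN1S1 and LALBA of 0.26.

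The row directly before each gene in the deposited table was examined, because signal from a spot can carry over to the next. In 428 places a row with a tissue mean of at least 2 in size was followed by a row without one. There the slope of the later row's tissue means on those of the strong row was 0.131. For weaker rows just before a strong one it was 0.0450. Over all rows, the median r with the row before was 0.13 (quartiles -0.23 and 0.48) across 16 tissue values.

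The row before PGK2 has no symbol and was nearly flat, with 0.05 in muscle and -0.05 in brain stem, although its r with PGK2 was 0.69. The row after PGK2, also unnamed, stood at 0.21 in muscle and -0.20 in brain stem. Its r with PGK2 was 0.74, and it passed the F test (limma adjusted p = 0.0138). The slope above times the row before is 0.01 in muscle, where PGK2 stood at 2.31.

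LALBA comes directly after CRP, the acute-phase C-reactive protein of hepatocytes, which stood at 2.47 in liver, -0.89 in muscle, -0.90 in uterine endothelium and -0.69 in brain stem. LALBA was highest in brain stem, and the 16 tissue values of the 2 rows had an r of -0.37. With 0.131 of the row before subtracted from every row, brain stem over liver in LALBA was 1.25 (limma adjusted p = 6.34e-05) and LALBA was also called lowest in liver. Both changes follow from taking away the high liver value of CRP, and they are no separate result on LALBA.

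PRM2 comes directly after CACNB4, a calcium channel subunit that was itself highest in muscle, at 0.39, and had an r of 0.56 with PRM2. The 2 means in muscle were of like size, 0.39 each, but CACNB4 stood at 0.02 in brain stem, where PRM2 was at -0.28. With the row before subtracted in the same way, PRM2 in muscle exceeded brain stem by 0.62 (limma adjusted p = 0.000602). Whether a larger share of CACNB4 signal reached the PRM2 spot was not tested.

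The other 4 rows had r between -0.74 and -0.02 with the gene after them. PRM1 comes after TSPO, a mitochondrial outer membrane protein, which stood at 1.43 in liver, 0.64 in uterine endothelium and -1.09 in brain stem. With the subtraction the PRM1 difference between brain stem and uterine endothelium was 0.63 (limma adjusted p = 5e-04). That rise follows from the subtraction itself, since TSPO was lower in brain stem than in uterine endothelium, and it is no separate result on PRM1. ODF1 comes after TYROBP, an adaptor of myeloid and natural killer cells (r -0.29), CSN1S1 after the amine oxidase MAOA (r -0.74), and DMRT1 after a probe of the pigment gene ASIP (r -0.02). The calls of PGK2, PRM2, ODF1 and LALBA as highest in a tissue were made with the subtraction too.

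**Figure D4:**
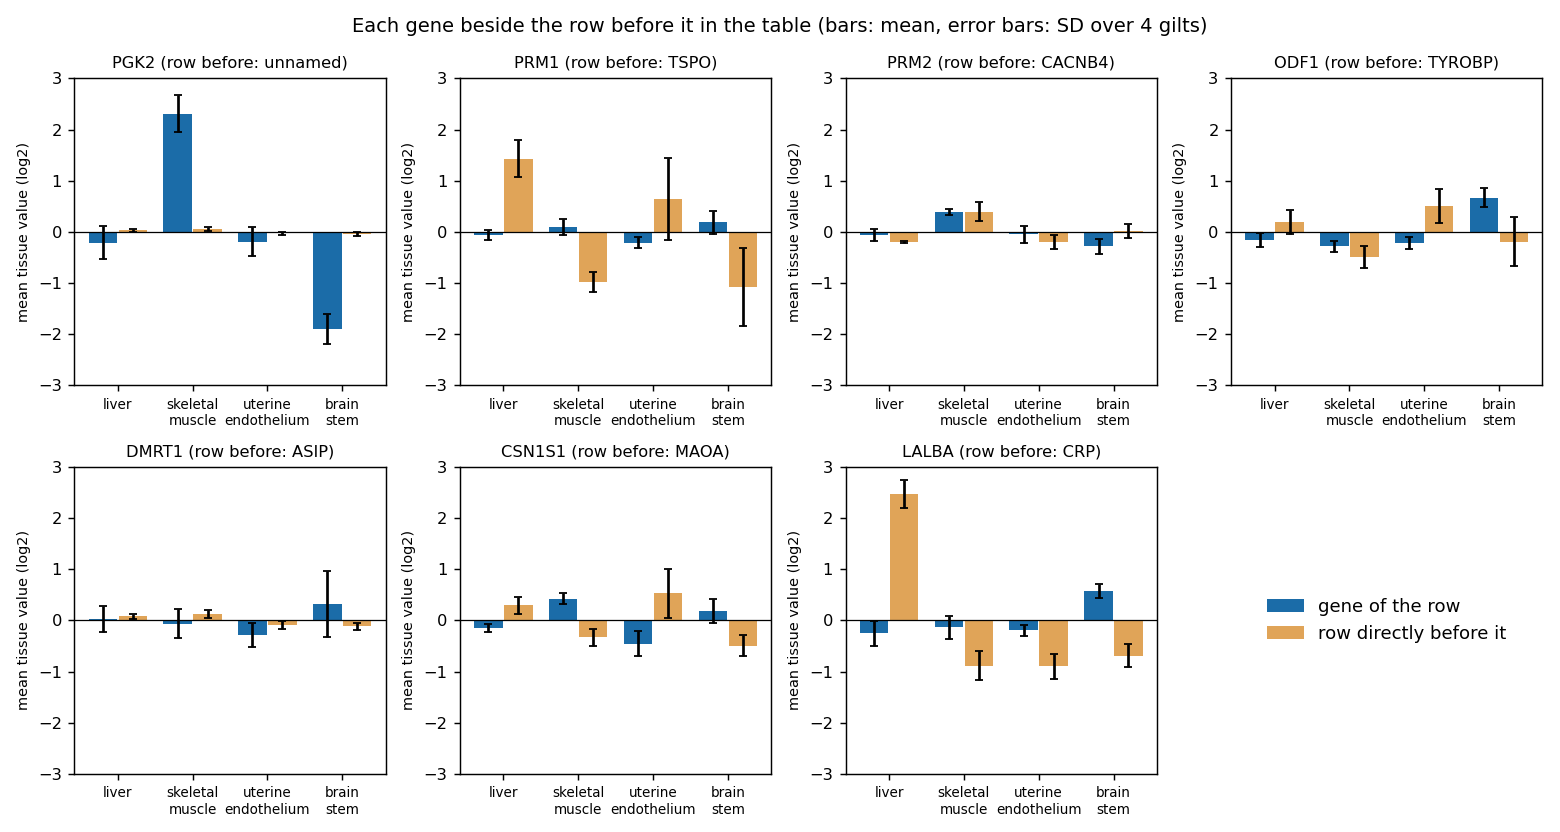
Mean tissue values (log2, y axis; bars with SD over 4 gilts) of each of the 7 genes (blue) and of the row directly before it in the deposited table (orange) in the 4 tissues (x axis). The blue and orange bars share the tissue and size of the peak for PRM2 with CACNB4 (both 0.39 in muscle). CRP peaks in liver (2.47) before LALBA, which peaks in brain stem (0.58).

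The plot of each gene beside its preceding row shows PRM2 with CACNB4 as the pair with a peak of like tissue and size. The row before PGK2 also had its highest mean in muscle, but only at 0.05. Of the rows directly after, LY49, which follows PRM1, was highest in brain stem at 0.29, with an r of 0.58 with PRM1. GATA6, which follows PRM2, was highest in liver at 0.24 (r 0.05). INHA, which follows DMRT1, stood at 0.70 in muscle (r -0.27), and GOT1, which follows CSN1S1, at 0.43 in liver (r 0.12). The unnamed rows after ODF1 and LALBA had an r of -0.67 and 0.57 with those genes.

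Among the 174 other genes with a symbol, those with the 16 tissue values most like each gene were named by Pearson r. PGK2 was most like PR39 (0.91), KLF4 (0.91) and MYOD1 (0.89), and PRM2 most like SHAS2 (0.89), CD1.1 (0.88) and PR39 (0.87). All of these had their highest mean in muscle, with KLF4 at 1.00 and MYOD1, a myogenic transcription factor, at 0.86.

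ODF1 was most like PGLYRP2 (0.98), COL10A1 (0.96) and IL17A (0.95), and LALBA most like LTA (0.92), IL17A (0.92) and PGLYRP2 (0.90). These had their highest mean in brain stem, at 1.17 for the cytokine LTA, 0.60 for PGLYRP2, a peptidoglycan-degrading protein made by the liver, 0.56 for COL10A1, the collagen of growth plate cartilage, and 0.35 for IL17A. PRM1 was most like SSTR2 (0.97), GAD2 (0.90) and VNN1 (0.89), and DMRT1 most like GAD2 (0.84), MMP14 (0.79) and SLC17A1 (0.77). CSN1S1 was most like AVPR2 (0.89), the sperm mitochondrial protein gene SMCP (0.87) and ITGA2B (0.82).

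These likenesses run between rows that hold similar places in the table, as nearly all rows with a symbol do. The table falls into 48 runs of 432 rows, and 173 of the 178 rows with a symbol sit at positions 387 to 390 of a run. Of the 21 likenesses, 7 are to a gene a whole multiple of 432 rows away. Because 173 of these rows share only 4 positions, many pairs of rows with a symbol must have that spacing. The share over all such pairs was not computed, so the count is not read as a trait of the likenesses. The part of this spacing in the likenesses was not tested.

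Other genes of testis and milk were few among the 178 rows with a symbol. Measured means here that a gene has such a row. Which genes the 20558 rows without a symbol probe is not known here. Of 45 listed sperm and testis genes, INHA, SRY, ZPBP and FSHR were measured. The F test passed for 3 of the 4, against 61.2% of all rows, and so few genes cannot be told from that share. ZPBP, a sperm protein that takes part in binding the egg coat, was highest in brain stem, at 0.26, against -0.06 in liver, -0.13 in muscle and -0.07 in uterine endothelium. INHA, the inhibin alpha subunit, ranged over 1.28 between muscle and brain stem but was called highest in no tissue, and FSHR, the receptor of follicle-stimulating hormone, ranged over 0.37.

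SRY, the testis-determining gene of the Y chromosome that female pigs lack, had a range of 0.17 over the 4 tissues, with -0.05 in liver, -0.01 in muscle, -0.05 in uterine endothelium and 0.12 in brain stem. It did not pass the F test (limma adjusted p = 0.0622). The smallest range among the 7 genes was 0.40, in PRM1. A list of 3 further sperm genes was drawn up after the probe names were seen. In it SMCP passed the F test with a range of 0.25, while PLCZ1, the sperm phospholipase that starts calcium waves in the egg, and the hyaluronidase HYAL3 had ranges of 0.20 and 0.17 and did not pass.

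Of 22 listed milk and mammary genes, OXTR, PRL and PRLR were measured. All 3 passed the F test, against 61.2% of all rows, and so few genes cannot be told from that share. The oxytocin receptor OXTR was highest in muscle, at 0.35, and 0.37 above the nearest tissue. The prolactin receptor PRLR stood at 0.47 in liver, where it was highest, and at -0.42 in brain stem, where it was lowest. Prolactin itself (PRL) stood at 0.35 in muscle and -0.23 in brain stem and was called in no single tissue.

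Of 43 listed genes of further tissues that were not sampled, 8 were measured by 11 rows, and 10 rows passed the F test, against 61.2% of all rows. The pituitary precursor POMC (0.36), COL10A1 (0.56) and the cone opsin OPN1SW (0.26) were highest in brain stem. LHB, the beta subunit of luteinising hormone, and 2 of the 4 ASIP rows were lowest there.

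The markers of the labelled tissues were also unevenly placed. Of the liver markers 5 of 8 measured were highest in liver, of the muscle markers 2 of 3 in muscle, of the uterine markers 1 of 2 (CAV1) in uterine endothelium, and of the brain markers 1 of 3 (CEND1) in brain stem. With the sign turned, those 5 liver markers, CRP at 2.47 and PROC at 2.07 among them, would be lowest in liver. Against their labels, the brain marker GLRB was lowest in brain stem, at -0.26, the liver marker PGLYRP2 was highest there, at 0.60, and the uterine marker OXTR was highest in muscle. The brain marker GAD2 had its highest mean in brain stem, at 0.25, without a call. Also without a call, the muscle marker MYH7 had its highest mean in liver, at 0.19. The liver markers VNN1 (0.24) and CYP8B1 (0.20) had theirs in muscle, with VNN1 at 0.24 in brain stem too. Of 5 measured leukocyte markers, LTA (1.17) and TLR10 (0.48) were highest in brain stem and CCR9 and IL12RB2 lowest in uterine endothelium, while CD4 stood at 0.15 in liver and -0.10 in brain stem and was called in no tissue. No red cell marker had a symbol. The part of leukocytes in the values of ODF1 and LALBA was not tested.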

How the data were processed

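RNA of 4 tissues from 4 gilts was measured on 16 2-colour arrays. The deposited table holds 1 log ratio for each of 20736 rows and 16 arrays, with no missing value. The authors' deposited values were taken as log2. Their largest size was 10.42, which does not settle the base, and all folds given rest on the log2 reading. Scanner, background correction, normalization, base and sign were not given in the sources used here. Array medians lay between -0.01 and 0.01 and SDs between 0.52 and 1.00, so the arrays appeared centred. With no intensities used, a probe at background could not be told from a bright one. The number of gilts limits the precision.

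Each loop was solved by least squares into tissue values and 1 dye value per gilt. limma 3.58.1 in R 4.3.3 was fitted to all rows, the gilt being a fixed block (9 residual degrees of freedom were left), and tested on simulated data. Tests were two-sided. The pairing comes from the labels, which tie a loop to 1 animal. Control probes were not separated from the rest.

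The platform annotation names 178 rows (175 genes, 1 symbol each), all of them found by their identifiers in the reference gene list, and 20558 rows have no symbol here. The genes, lists and tests were chosen with earlier results of these data known. Genes named are the 7, the rows beside them, the 3 most alike of each, and measured members of the lists. Alternatives were fits without the gilt block or on array ratios, other centring and scaling, robust moderation, a spread filter, carry-over subtraction, adjustment over rows with a symbol, each gilt left out, and the sign turned.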

Additional observations from a re-analysis of the deposited data

Results flagged for a closer look

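Of 70 values of the 7 genes over 4 gilts (tissue values and pairwise differences), 4 held a gilt set apart from the others by most of the range, and chance gives about 1 in 20. In PGK2, muscle exceeded brain stem by 3.27 in gilt 2, against 4.47 to 4.63 in the other gilts. In uterine endothelium, PRM1 stood at -0.055 in gilt 1, against -0.29 to -0.25 in the others, and ODF1 stood at -0.056 in gilt 1, against -0.30 to -0.26. In DMRT1, liver exceeded uterine endothelium by 0.76 in gilt 1, against 0.15 to 0.19 in the others.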

How the results depend on the processing

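Sign and base of the ratio are not stated, no intensity separates dim from bright probes, each gene has 1 probe, and no probe sequence was compared with a paralog. With the sign turned, 1 gene was highest and 4 were lowest in a tissue, and the largest differences were -4.22 (PGK2), -0.40 (PRM1), -0.67 (PRM2), -0.95 (ODF1), -0.60 (DMRT1), -0.89 (CSN1S1) and -0.83 (LALBA). Under the other 15 alternatives, the last of which (tissues centred on the rows with a symbol) was chosen after seeing the data, each of the calls of PGK2, PRM2, ODF1 and LALBA as highest and of PGK2 as lowest was made 15 times. Genes passing the F test numbered 5 or 6, the added gene being PRM1 with no replicate block (6), both fits of array ratios, arrays scaled, carry-over subtracted, adjustment over rows with a symbol, and without gilt 4. Genes called lowest numbered 2 with no replicate block (PRM2 in brain stem as well) and 2 with carry-over subtracted (LALBA in liver as well). Tissue values sum to 0 within a gilt, so the fit without the gilt block has the same differences and counts too many degrees of freedom. With a random replicate block on the array ratios, 4 genes were highest and 1 was lowest, as in the main fit. There, 29.6% of all rows were highest and 9.88% lowest in some tissue, and turning the sign exchanges these shares. The shares over all rows under the other alternatives are not given here.

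With each gilt left out in turn, 5 to 6 genes passed the F test, 4 to 5 were highest (CSN1S1 in muscle without gilt 4) and 1 to 2 were lowest (PRM2 in brain stem without gilt 3). The largest differences then ranged over 4.08 to 4.54 (PGK2), 0.27 to 0.48 (PRM1), 0.62 to 0.73 (PRM2), 0.82 to 1.01 (ODF1), 0.24 to 0.91 (DMRT1), 0.79 to 0.98 (CSN1S1) and 0.70 to 0.94 (LALBA). The causes of these changes were not tested.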
